A study of Mus musculus with 8 samples.

Results

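The replication-dependent histone genes were examined in isolated back skin epidermis of mice that were wild type (WT) or lacked the gene for transforming growth factor alpha (Tgfa KO). Members were all genes whose symbol in GENCODE release M21 starts with Hist1h, Hist2h, Hist3h or Hist4h, and 68 of the 49315 genes in the files met this rule. By histone class there were 6 H1, 20 H2A, 17 H2B, 12 H3 and 13 H4 genes. By cluster there were 54 Hist1 genes on chromosome 13, 10 Hist2 genes on chromosome 3, 3 Hist3 genes on chromosome 11 and 1 Hist4 gene on chromosome 6. A further 2 symbols that the rule takes, Hist1h2bh and Hist1h2bm, were not analysed here. The prefix also takes in genes known from testis (Hist1h1t, Hist1h2aa and Hist1h2ba) and the pseudogene Hist3h2bb-ps.

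Histones H2A, H2B, H3 and H4 form the core around which DNA is wrapped in the nucleosome, and the linker histone H1 binds where DNA enters and leaves it. Replication-dependent histone genes are transcribed mainly in S phase, when new DNA has to be packaged, under the coactivator NPAT. Their transcripts have no introns and usually end in a short stem-loop, bound by SLBP, in place of a poly(A) tail. Some of these genes also give polyadenylated transcripts, known from differentiated cells. In epidermis, dividing cells lie mainly in the basal layer and the hair follicle.

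The study had 3 WT and 5 Tgfa KO libraries, all of epidermis with keratinocytes as the labelled cell type, from mice 22 months old. No other allele, agent or strain is given in the sources used here, nor whether the deletion is present in all cells. The labels do not say that each library came from its own animal, so a p-value speaks only of the spread among these 8 libraries. Selection of transcripts by their poly(A) tail is not stated either, which matters for genes whose transcripts usually lack one.

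Both ends of these genes carry known sequence elements. The 16-base stem-loop was found in the GENCODE M21 transcripts of 42 of the 68 members, and it is shown because its letters set the H4 genes apart from the other classes, which share theirs. Capitals mark the arms of the stem and lower case the loop.

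Stem-loop of 24 members (H1, H2A, H2B and H3): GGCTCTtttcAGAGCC

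Stem-loop of 6 members (H1, H2B and H3): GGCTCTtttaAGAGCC

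Stem-loop of Hist2h2ac: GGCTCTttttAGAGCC

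Stem-loop of 7 H4 members: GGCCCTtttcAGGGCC

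Stem-loop of Hist1h4i and Hist2h4: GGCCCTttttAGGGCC

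Stem-loop of Hist1h4b and Hist1h4j: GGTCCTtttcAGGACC

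All 11 H4 genes with a stem-loop had 1 of the last 3 sequences, and none of the 31 members of other classes did. Class counts with a stem-loop were 4 of 6 for H1, 11 of 20 for H2A, 8 of 17 for H2B, 8 of 12 for H3 and 11 of 13 for H4. For the other members these letters were not in the annotated transcript, which can end before the stem-loop.

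Promoters were read from RefSeq for 60 members by symbol (61 promoters, build GRCm38.p6), from 250 bases before the start into the transcript. Searched on both strands, CCAAT, the box bound by NF-Y, was present in all promoters of H1 (6), H2A (18), H2B (15) and H3 (10) genes and in 3 of 12 H4 promoters (25%), against 37.41% of all 32851 promoters. ATTTGCAT, the octamer bound by POU2F1, was in 7 H2A and 6 H2B promoters and in no H1, H3 or H4 promoter, against 1.74% of all. Promoters of divergent pairs overlap, so the same match can count in both classes. This was so for the octamer of Hist1h2aa with Hist1h2ba, Hist1h2ae with Hist1h2bg and Hist1h2ah with Hist1h2bk. TATAAA was in 57.38% of the members' promoters and 13.62% of all. A CCAAT match can share its end letters with an ATTTGCAT match, each motif was counted by itself, and a match is a description, not a site. The sequences that follow are the stretch between the starts of the divergent pair Hist1h2ae and Hist1h2bg, the pair with the highest mean level per kb, and the bases before the start of Hist1h3c, the member with the smallest edgeR p, and of Hist1h4f, a gene of the class that mostly lacks CCAAT. Capitals mark matches to the 3 motifs on either strand.

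Between Hist1h2ae and Hist1h2bg, plus strand, chr13:23571221-23571399: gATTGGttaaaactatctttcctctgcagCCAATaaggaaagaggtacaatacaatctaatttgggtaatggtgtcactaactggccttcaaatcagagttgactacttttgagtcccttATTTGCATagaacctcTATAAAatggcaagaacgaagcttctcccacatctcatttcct

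Before Hist1h3c, minus strand, chr13:23745522-23745771: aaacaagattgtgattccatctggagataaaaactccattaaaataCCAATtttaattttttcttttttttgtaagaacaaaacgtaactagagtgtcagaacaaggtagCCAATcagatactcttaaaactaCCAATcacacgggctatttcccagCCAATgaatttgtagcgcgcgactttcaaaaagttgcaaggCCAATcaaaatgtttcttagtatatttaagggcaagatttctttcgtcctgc

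Before Hist1h4f, minus strand, chr13:23551669-23551918: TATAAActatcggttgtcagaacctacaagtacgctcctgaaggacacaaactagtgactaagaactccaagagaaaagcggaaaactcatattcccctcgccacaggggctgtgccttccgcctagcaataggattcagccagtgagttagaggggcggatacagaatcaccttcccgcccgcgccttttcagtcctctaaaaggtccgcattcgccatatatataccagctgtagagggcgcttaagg

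Libraries differed in ways that touch every result below. Total counts ran from 5313552 in KO replicate 2 to 18292303 in WT replicate 1. Tgfa was present in every library, at 92.5, 85.1 and 112 CPM (the count relative to a TMM-scaled library size) in WT and at 132, 34.4, 43.3, 36.2 and 70.2 in KO replicates 1 to 5, so the library labelled KO replicate 1 went against its label (log2 fold change -0.61, SE 0.43, edgeR adjusted p = 0.899). The nuclear RNA Malat1 made up 6.61% of WT replicate 3 and 4.88% of KO replicate 1, against 1.34% to 1.84% of the others. Olfactory, vomeronasal and trace amine receptor genes, which skin should hardly express, reached 4.60 counts per kb in KO replicate 2, 1.85 and 0.940 in WT replicates 3 and 2, and 0.123 to 0.264 elsewhere. A name ending br was shared by every WT library with KO replicates 1 and 2, and KO replicates 3 to 5 had the ending bl. The labelled cell type matched its markers: summed basal keratinocyte markers were 3713 to 12120 CPM in WT and 5106 to 12440 in KO, and suprabasal markers 9545 to 13223 and 6465 to 25266.

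Histone transcripts were a small and variable share of the epidermal RNA. WT replicates 1 to 3 had 0.0369%, 0.0615% and 0.122% of their counts in members, and KO replicates 1 to 5 had 0.102%, 0.0601%, 0.0988%, 0.113% and 0.0770%. Summed CPM per kb of gene length, the scale used here to compare genes and classes, was 597, 942 and 1640 in WT and 1862, 872, 1587, 1753 and 1175 in KO. WT replicate 1 was lowest and KO replicate 1 highest, and WT replicate 3 lay above KO replicates 2, 3 and 5, so the groups overlapped. In bulk samples, fewer cells of a type and less RNA per cell cannot be told apart.

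Per kb of gene length, H4 transcripts were the most abundant class in 6 of 8 libraries. This order depends on the division by annotated length. Summed CPM alone was higher for H1 than for H4 in all libraries but WT replicates 1 and 2 (345 against 294 in KO replicate 4). H4 took 47.8%, 46.3% and 28.6% of the summed CPM per kb in WT and 29.3%, 37.6%, 33.6%, 33.5% and 36.0% in KO. Linker histone H1 took 19.9%, 23.4% and 42.4% in WT and 33.7%, 23.0%, 21.3%, 22.6% and 23.6% in KO. WT replicate 3 and KO replicate 1, the libraries with the high Malat1 share, had the highest H1 and the lowest H4 shares. In them the H1 share per kb exceeded the H4 share.

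**Figure D1:**
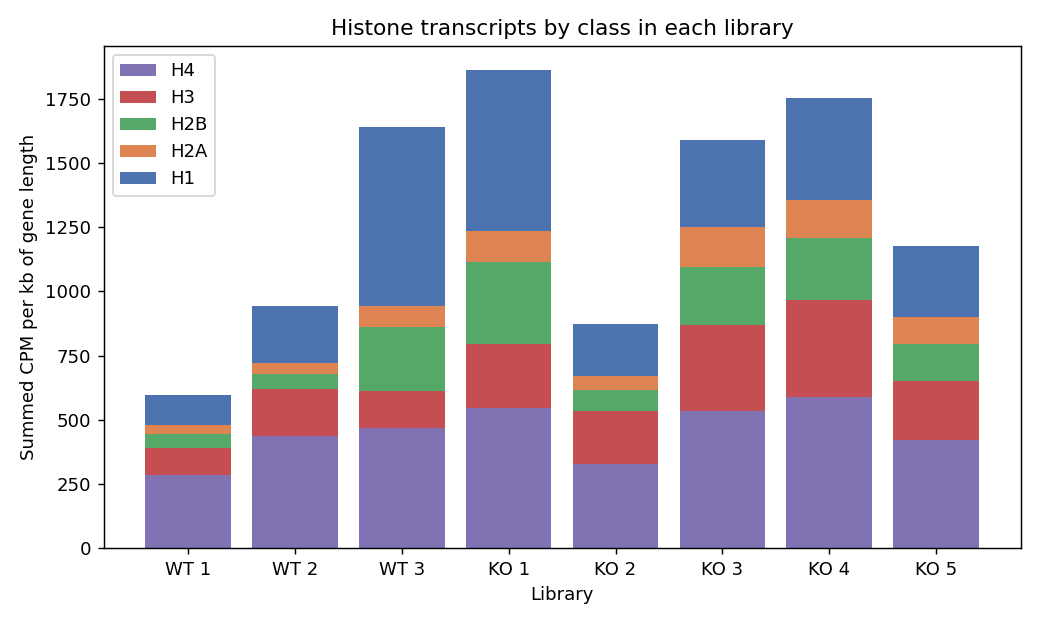
Summed CPM per kb of gene length of the histone members in each library, stacked by class. The total runs from 597 in WT replicate 1 to 1862 in KO replicate 1, and H1 takes the largest part in WT replicate 3 and KO replicate 1.

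Between genotypes, most tested members had positive log2 fold changes (KO minus WT), and none passed the threshold in the test over all 8 libraries. A filter on low counts left 54 members (5 H1, 14 H2A, 12 H2B, 10 H3 and 13 H4). Of these, 48 were positive and 6 negative, where 61.9% of all 19239 tested genes were positive, and the median was 0.82, against 0.16 over all tested genes. Class medians were 0.11 for H1, 1.06 for H2A, 0.96 for H2B, 0.91 for H3 and 0.28 for H4, and by cluster the median was 0.91 for Hist1 (46 genes) and 0.66 for Hist2 (5 genes). The edgeR quasi-likelihood test called 0 members, where it called 0.0052% of all genes higher, and the smallest Benjamini-Hochberg adjusted p was 0.33. Without WT replicate 3 the median over members was 1.48 (H1 1.22, H2A 1.65, H2B 1.69, H3 1.34 and H4 0.50), and without WT replicate 2 it was 0.51 (H2B 0.31). At an unadjusted p under 0.05 there were 14 members, all positive, against 4.44% of all genes on that side. DESeq2 called 3 members higher and 0 lower of the 46 to which it gave an adjusted p, where 0.569% of all genes with an adjusted p were called higher. It gave none to the other 8 of the 54.

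Separation of single members was limited by the same libraries. All 5 KO libraries lay above all 3 WT libraries for 9 of the 54 tested members (2 H1, 3 H2A, 1 H2B, 2 H3 and 1 H4), and for 3.4% of all tested genes. No member had all KO libraries below all WT libraries. The highest library was WT replicate 3 or KO replicate 1 for 23 members, KO replicates 3 to 5 for 28, KO replicate 2 for 1 and WT replicate 1 or 2 for 2.

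**Figure D2:**
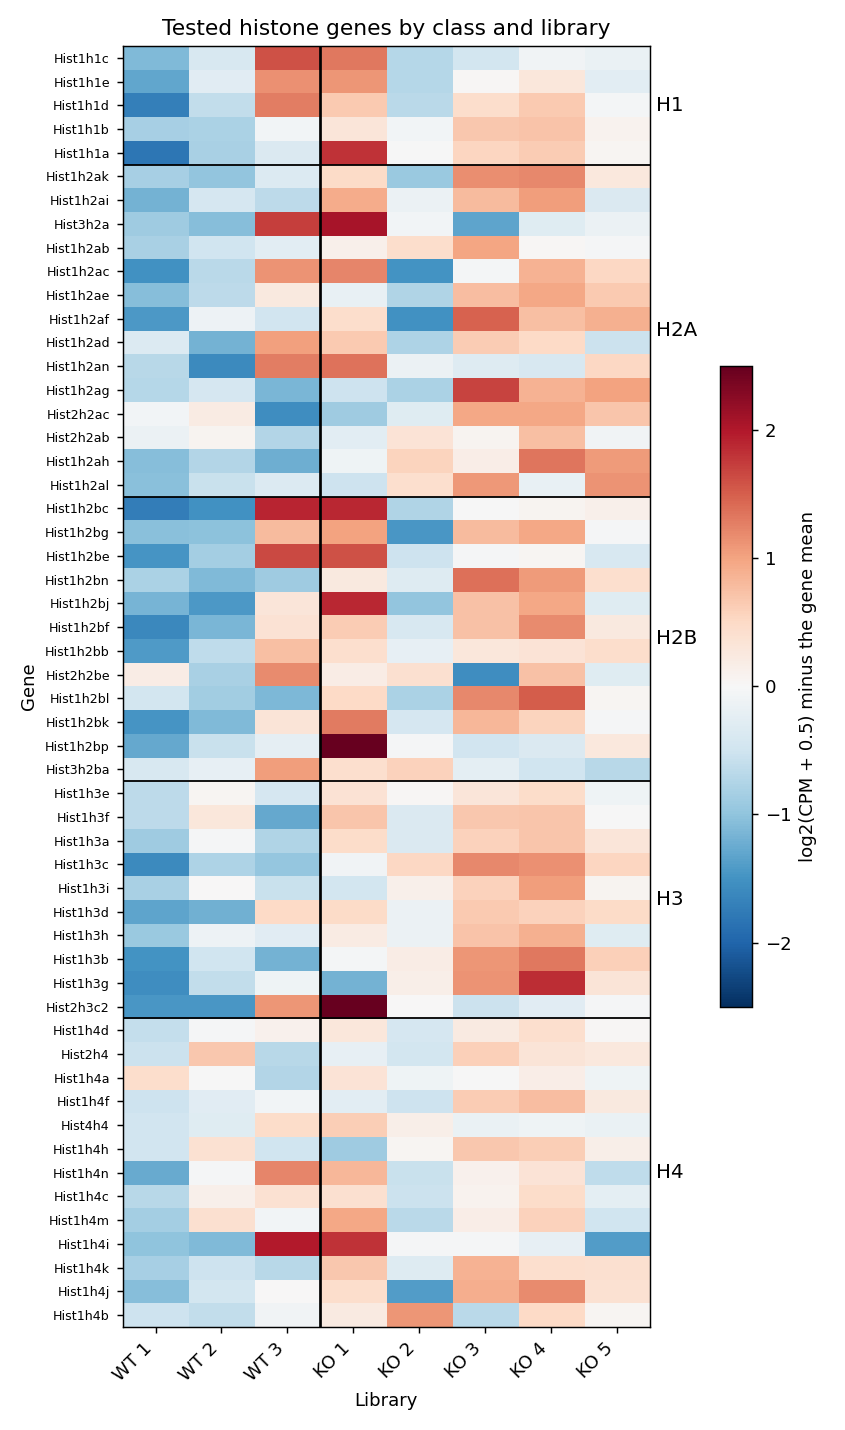
Colour shows log2(CPM + 0.5) minus the gene's mean over the 8 libraries, for the 54 tested members (rows, by class and within a class by level) in each library (columns). Most H3 rows are highest in KO replicates 3 and 4, while many H1 and H2B rows are highest in WT replicate 3 and KO replicate 1.

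A fit that weights libraries by how well they follow the fitted values gave larger values. WT replicate 3 and KO replicates 1 and 2 were weighted at 0.34, 0.28 and 0.37, against 1.47 to 2.26 for the rest. In this fit, limma voom with sample quality weights, 18 members rose and 0 fell (2 H1, 2 H2A, 7 H2B, 4 H3 and 3 H4), where 3.39% of all genes rose, and the median was 1.30 against -0.01 over all tested genes. With those 3 libraries left out altogether, edgeR called 24 of 52 tested members higher and 0 lower (5.25% of all genes higher). By class the 24 were 2, 6, 9, 4 and 3, and the median was 1.34. WT replicates 1 and 2 and KO replicates 3 to 5 then remained. The libraries left out have the lowest weights in these same data, so their removal narrows the spread within groups. Calls of this fit and of the weighted fit are therefore a description. The KO libraries that then carry the comparison all have names ending in bl and the WT libraries all br, so genotype and name ending cannot be told apart there. Among br libraries alone (3 WT, 2 KO), 46 of 52 tested members and 14142 of all 22750 tested genes were positive. The median was 0.53 against 0.25 over all genes. The 2 KO libraries of this br comparison are KO replicates 1 and 2, both of low weight. Tgfa in KO replicate 1 went against its label, and KO replicate 2 had the lowest total count, so br values here and below carry these limits. Class medians among br libraries were 0.48 for H1, 0.54 for H2A, 0.76 for H2B, 0.62 for H3 and 0.11 for H4.

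**Figure D3:**
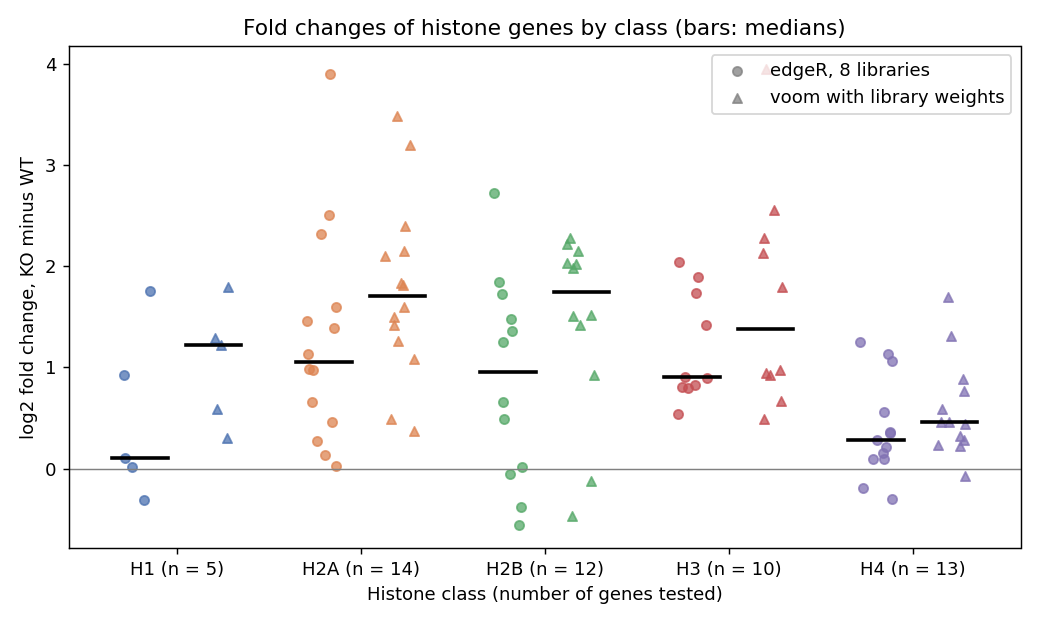
Each point is the log2 fold change (KO minus WT, vertical axis) of 1 tested member, by histone class, from edgeR on 8 libraries (circles) and from voom with library weights (triangles), and bars are medians. Medians move from 0.11 to 1.22 for H1 and from 0.28 to 0.46 for H4 when libraries are weighted.

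Among core histones, the level of the H3 class did not overlap between the groups. The mean log2 CPM over 10 genes was 1.67, 2.46 and 2.66 in WT and 3.37, 3.06, 3.70, 3.92 and 3.25 in KO, the lowest in WT replicate 1 and the highest in KO replicate 4. All 10 were positive (0.54 to 2.04), also among br libraries. Each of the 10 shares part of its sequence with other genes, from 15.6% of read-length windows in Hist1h3c to 90.5% in Hist1h3h. The treatment of reads that match several genes is not given, so the 10 values may not be separate readings. Hist1h3c (ENSMUSG00000069310, chromosome 13, 23745013 to 23745501) was 3.86, 7.21 and 6.25 CPM in WT, against 11.9, 18.4, 29.6, 28.5 and 18.4 in KO. Every KO library lay above every WT library, and the log2 fold change was 1.89 (SE 0.37, edgeR adjusted p = 0.33), 2.13 with library weights (SE 0.31, limma adjusted p = 0.00464) and 1.30 among br libraries. The WT mean of Hist1h3c was 5.78 ± 1.72 CPM (SD, n = 3) and the KO mean 21.4 ± 7.54 CPM (SD, n = 5).

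Hist1h3b (chromosome 13, 23752267 to 23752886) was scarcer, at 0.84, 2.18 and 1.17 CPM in WT, against 3.17, 3.82, 7.69, 8.96 and 5.22 in KO. The groups did not overlap, and the log2 fold change was 2.04 (SE 0.54, edgeR adjusted p = 0.532). DESeq2 called both Hist1h3c (1.85, adjusted p = 0.00159) and Hist1h3b (2.02, adjusted p = 0.0445). Hist1h3d was 3.64, 4.04 and 14.1 CPM in WT, against 13.9, 8.86, 15.8, 14.9 and 14.0 in KO. Here WT replicate 3 reached the KO level, so the log2 fold change was 0.90 over 8 libraries (SE 0.46) and 1.79 with weights (limma adjusted p = 0.00539).

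The H3 gene with the highest level per kb, Hist1h3e (45.2 CPM per kb), was 23.0, 38.0 and 27.4 CPM in WT, against 47.2, 37.7, 45.1, 50.4 and 33.8 in KO, which overlapped (log2 fold change 0.54, SE 0.24). Hist1h3i had 0.81 (SE 0.37) and Hist1h3a 0.91 (SE 0.32). With weights Hist1h3a rose by 0.95 (limma adjusted p = 0.037), and Hist1h3i, at 0.93, did not pass (adjusted p = 0.08).

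The H4 genes, which carry the most counts per length, differed least among the core classes. Hist1h4d (ENSMUSG00000061482, chromosome 13, 23581598 to 23581990) had the highest level of all members, 204 CPM per kb. It was 51.8, 76.3 and 84.1 CPM in WT, against 95.6, 58.5, 91.1, 105 and 79.5 in KO. Its groups overlapped, and the log2 fold change was 0.28 (SE 0.26, edgeR adjusted p = 0.924), 0.44 with weights (limma adjusted p = 0.168) and 0.10 among br libraries. Hist1h4c had 0.10 (SE 0.34) and Hist1h4n -0.19 (SE 0.54), the latter positive with weights (0.46).

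Single H4 genes went further than their class. Hist1h4k was 3.02, 3.90 and 3.36 CPM in WT, against 9.43, 4.51, 11, 7.87 and 7.72 in KO, without overlap. Its log2 fold change was 1.25 (SE 0.35, edgeR adjusted p = 0.562) and 1.31 with weights (limma adjusted p = 0.0191), and its br value was 1.01. Hist1h4f, whose promoter is printed above, was 8.79, 10.5 and 12.2 CPM in WT, against 10.6, 8.86, 20.3, 22.2 and 15.2 in KO. KO replicates 1 and 2 lay within the WT range and KO replicates 3 to 5 above it, so the weighted fit called it (0.89, limma adjusted p = 0.0397) while its br value was -0.15.

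H2A genes were all positive over the 8 libraries, at 0.03 to 3.90, and 9 of 11 tested were positive among br libraries. Most were scarce: the highest level among the 14 tested was 27.7 CPM per kb. Summed H2A CPM was 16.0, 20.04 and 44.2 in WT and 62.1, 26.6, 66.0, 65.5 and 46.0 in KO, a ratio of group means of 1.99, where only KO replicate 2 lay within the WT range. Hist1h2ak was 4.87, 4.37 and 7.03 CPM in WT, against 12.8, 4.51, 20.8, 21.6 and 10.9 in KO. KO replicate 2 alone fell within the WT range, and the log2 fold change was 1.39 (SE 0.47, edgeR adjusted p = 0.654) and 1.83 with weights (limma adjusted p = 0.0167). Hist1h2ai had 1.46 (SE 0.49) and Hist1h2ab 0.98 (SE 0.41), both with all KO libraries above all WT libraries, and Hist1h2ac had 0.46 (SE 0.80). Each of the 20 H2A members overlaps an annotated antisense gene, and with no word on strand in the counting, reads of the 2 cannot be told apart.

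Many H2B genes sit head to head with an H2A gene, and the class had the most members called with weights. Hist1h2bn, the divergent partner of Hist1h2ak, was 4.25, 3.31 and 3.91 CPM in WT, against 9.21, 6.08, 20.8, 16.7 and 10.4 in KO. The groups did not overlap, and its log2 fold change was 1.73 (SE 0.42, edgeR adjusted p = 0.443), 2.03 with weights (limma adjusted p = 0.0096) and 1.69 in DESeq2 (adjusted p = 0.0341). Hist1h2bf was 1.06, 1.65 and 5.63 CPM in WT, against 6.85, 3.13, 7.38, 10.3 and 5.15 in KO. Only WT replicate 3 reached the KO range, and the value went from 1.25 (SE 0.60) to 2.28 with weights (limma adjusted p = 0.017). Hist1h2bj had 1.48 (SE 0.74) and 2.02 with weights (limma adjusted p = 0.0445).

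The genes of the divergent pair printed above differed from each other in KO replicate 1. Hist1h2bg was 8.96, 8.996 and 33.1 CPM in WT, against 38.4, 6.60, 33.1, 37.3 and 18.4 in KO. WT replicate 3 and KO replicate 1 were as high as KO replicates 3 and 4, and KO replicate 2 was the lowest library, and the log2 fold change was 0.66 (SE 0.61, edgeR adjusted p = 0.925). Hist1h2ae was 1.01, 1.52 and 3.28 CPM in WT, against 2.29, 1.39, 4.94, 5.71 and 4.52 in KO, with 0.97 (SE 0.63). In KO replicate 1 Hist1h2ae lay within the WT range while Hist1h2bg lay above it. With weights both rose, by 1.81 and 1.51 (limma adjusted p = 0.0275 and 0.0321), and Hist1h2ae was -0.07 among br libraries.

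Across 13 divergent H2A and H2B pairs, 9 had both genes tested. Their correlation of log2 CPM over the 8 libraries had a median r of 0.71 (-0.61 to 0.93), and the other 159 H2A and H2B combinations had 0.45 (-0.87 to 0.92). The pair of Hist1h2ak and Hist1h2bn had the highest, 0.93, and Hist1h2ae with Hist1h2bg had 0.79. These points share libraries, depth and genotype, and the values are a description.

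Linker histone genes split into 2 whose groups did not overlap and 3 that were highest in WT replicate 3 and KO replicate 1. The split was not sharp. Hist1h1d, of the last 3, was 99.4 CPM in KO replicate 1 and 99.0 CPM in KO replicate 4. Hist1h1a, of the first 2, was also highest in KO replicate 1. Hist1h1b (chromosome 13, 21779883 to 21780625) was 9.68, 9.86 and 16.6 CPM in WT, against 21.8, 16.7, 28.1, 28.9 and 18.7 in KO. Its groups met without overlapping, and the log2 fold change was 0.93 (SE 0.29, edgeR adjusted p = 0.58) and 1.29 with weights (limma adjusted p = 0.00904). Hist1h1a was 2.24, 4.96 and 6.96 CPM in WT, against 32.9, 9.03, 13.4, 14.4 and 9.46 in KO, also without overlap, with 1.76 (SE 0.53, edgeR adjusted p = 0.579) and 1.79 with weights (limma adjusted p = 0.0154).

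The remaining H1 genes were the most abundant and had values near 0. Hist1h1c (ENSMUSG00000036181, chromosome 13, 23738808 to 23740367) was 48.1, 79.0 and 313 CPM in WT, against 260, 63.7, 76.1, 97.9 and 93.2 in KO. WT replicate 3 and KO replicate 1 stood above every other library, and the other 6 ran from 48.1 to 97.9. The log2 fold change was -0.31 (SE 0.63, edgeR adjusted p = 0.949). Hist1h1e had 0.02 (SE 0.54) and Hist1h1d 0.11 (SE 0.59). None of these 3 passed with weights, where Hist1h1d was nearest (1.22, limma adjusted p = 0.054). The H1 median depends on WT replicate 3: it was 1.22 without that library and -0.45 without WT replicate 2.

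Against libraries of their own group, both WT replicate 3 and KO replicate 1 were high in certain members. In 10 of the 51 tested members with a count in each term, WT replicate 3 was over 2 times the mean of WT replicates 1 and 2 and KO replicate 1 was over 2 times the mean of KO replicates 3 to 5, where 7.98% of all genes met both. They were Hist1h1c, Hist1h1e, Hist1h2an, Hist1h2bc, Hist1h2be, Hist1h2bj, Hist1h2bp, Hist1h4i, Hist3h2a and Hist3h2ba, all picked by these values, of which 5 also fall under the naming rule and the other 5 do not. By class they were 2 H1, 2 H2A, 5 H2B, 0 H3 and 1 H4. A high ratio within a group need not be a high level. Hist1h2bj in WT replicate 3 (5.78 CPM) lay below KO replicates 3 and 4 (7.94 and 9.41 CPM). Hist1h2bp in WT replicate 3 (0.547 CPM) lay below KO replicates 2 and 5 (0.695 and 0.974 CPM). The H3 gene Hist2h3c2 was not among the 51, since it had 0 counts in WT replicates 1 and 2. Its counts were 31 in WT replicate 3, 108 in KO replicate 1 and between 5 and 12 elsewhere in KO. Hist1h2bc, whose gene runs from 23684199 to 23692488 on chromosome 13, was 5.77, 6.81 and 77.7 CPM in WT, against 76.1, 11.8, 20.2, 21.3 and 22.2 in KO. Among the other 6 libraries every KO value lay above both WT values, and the log2 fold change was 0.02 over 8 libraries (SE 0.87, edgeR adjusted p = 0.996) and 1.52 with weights (limma adjusted p = 0.0415).

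**Figure D4:**
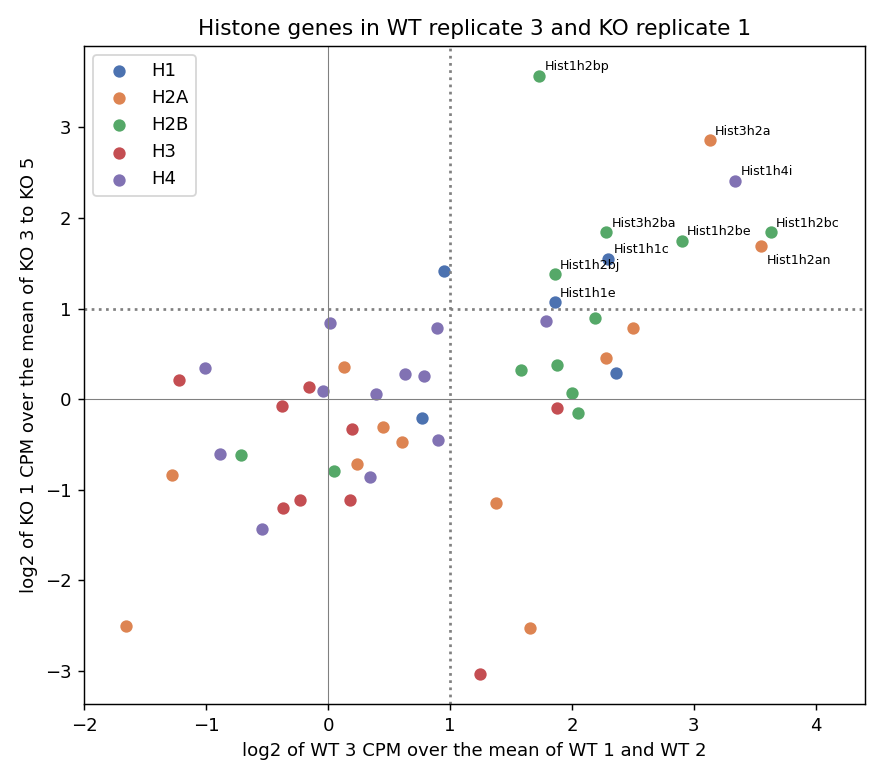
Each point is 1 of the 51 tested members with both ratios, placed by the log2 ratio of WT replicate 3 to the mean of WT replicates 1 and 2 (horizontal) and of KO replicate 1 to the mean of KO replicates 3 to 5 (vertical), coloured by class, with dotted lines at a ratio of 2. The 10 named members lie in the upper right, and no H3 member plotted does.

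This pattern went with where the annotated gene ends. Where a stem-loop was found, the counted interval ended within 100 bases of it in 24 tested members and over 100 bases past it in 12. Among those with both ratios, the 2-library pattern was present in 2 of 23 short members (Hist1h1e and Hist1h2bj), in 6 of 11 long ones (Hist1h1c, Hist1h2be, Hist1h2bp, Hist1h4i, Hist3h2a and Hist3h2ba) and in 2 of 17 without a stem-loop found. Hist2h3c2, a long member, had no ratio. Among the long members, the ratios of Hist1h2bp (0, 5 and 7 counts in WT) and Hist3h2ba (2 to 21 counts per library) rest on few counts. On the same strand, Hist3h2a overlaps an exon of Trim17 and Hist1h2be an exon of Gm11398, so their counts may include reads of those genes. The median log2 ratio of KO replicate 1 to KO replicates 3 to 5 was 0.06 in the short and 1.65 in the long members, and that of WT replicate 3 to WT replicates 1 and 2 was 1.38 and 1.73. Median log2 fold changes between genotypes were 0.78 and 0.18, and 11 and 1 members rose with library weights. The Malat1 share was high in the same 2 libraries. So was the ratio of summed suprabasal (6 genes) to basal (5 genes) keratinocyte markers, at 2.57 in WT replicate 3 and 3.88 in KO replicate 1, against 1.09 to 1.81 in the other 6 libraries. The part of either in the result was not tested.

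Near-identical copies and overlapping genes limit some members. Of the 12 members with over 80% of their 150-base windows in another gene's transcript, 8 had fewer than 10 counts in all libraries together, as did 2 of 28 with 20% to 80% shared and 3 of 28 with less. No count was found in any library for 7 members: Hist2h2aa1, Hist2h2aa2, Hist2h3c1, Hist2h3b, Hist2h2bb, Hist1h2ap and Hist1h2br. They shared 33.6% to 100% of their windows, in part with overlapping genes and not only with copies. Hist2h2bb shared windows only with Gm42743, which overlaps its exon on the same strand. Gm20634 overlaps Hist2h2aa1 and Hist2h3c1 in the same way, and Hist2h2aa2, Hist2h3b and Hist1h2ap have antisense overlaps. Reads that match several genes or lie in overlapping exons may have been left out of the counts, so no value is read from these 7 members. Among the other untested members, Hist1h2aa and Hist1h2ba had counts only in KO replicate 2 (6 and 3). There summed testis markers were 10.4 CPM, against 0 to 2.19 in the other libraries. KO replicate 2 also had the most receptor gene counts (4.60 per kb) and the highest fibroblast (74.0 CPM) and muscle (17.4 CPM) marker sums. The source of these few counts was not tested. Hist1h2ai, named above, shares 86.1% of its windows. Also named above, Hist1h2ab, Hist1h2bn, Hist1h3a, Hist1h3b, Hist1h3e, Hist1h3i and Hist1h4k are among the members with 20% to 80% shared. The values of all these genes are uncertain, and so is the mean level of the H3 class, which includes Hist1h3h with 90.5% shared. Hist1h3c, Hist1h3d and Hist1h1e share less than 20%, and Hist1h1a, Hist1h1b, Hist1h1c, Hist1h2ak and Hist1h4d share none. Over the 12 tested members with no shared window, 9 were positive, with a median of 0.47 and 0.85 with weights.

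Members outside the naming rule, named here after their values were seen, hold the extremes. The largest value was that of Hist1h2ah (3.90, SE 1.13, edgeR adjusted p = 0.563), which rests on 1, 3 and 0 counts in WT and 8, 7, 13, 43 and 28 in KO and is set by the prior count as well. Hist1h2bp had 2.72 (SE 1.45) from 97 counts in KO replicate 1 and at most 14 in any other library, so 1 library carries it. Hist1h2ag was 0.39, 0.59 and 0.16 CPM in WT, against 0.52, 0.35, 4.19, 2.17 and 2.44 in KO. KO replicates 1 and 2 lay within the WT range and KO replicates 3 to 5 lay above it (log2 fold change 2.32, edgeR adjusted p = 0.76). Among more abundant ones, Hist2h4 was 28.9, 68.1 and 26.1 CPM in WT, against 36.9, 30.7, 64.4, 53.3 and 51.0 in KO, which overlapped (0.21, SE 0.37). Hist4h4, the 1 gene of its cluster, had 0.16 (SE 0.31). Of the members that rose with weights, Hist1h2bb (1.42, limma adjusted p = 0.039), Hist1h2bk (2.22, limma adjusted p = 0.0406) and Hist1h4j (1.70, limma adjusted p = 0.0428) complete the 18.

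The few negative members were scarce or carried by 1 library. Hist3h2ba was 0.28, 0.40 and 1.64 CPM in WT, against 0.88, 1.04, 0.38, 0.23 and 0.14 in KO, which overlapped (log2 fold change -0.56, SE 0.98, edgeR adjusted p = 0.938). Hist2h2be was 3.69, 1.59 and 7.89 CPM in WT, against 3.69, 4.34, 0.75, 5.59 and 2.51 in KO, also overlapping (-0.38, SE 0.67). Neither value was past its error, and without WT replicate 3 they were 0.59 and 0.34.

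Genes that make and process histone transcripts had a median near 0. Single values ran from -0.53 for Cstf2t (SE 0.41) to 0.88 for Zfp473 (SE 1.42), both named after their values were seen. Of 23 tested genes of histone transcription and 3′ end processing, 13 were positive, the median was 0.04, and 0 passed in edgeR or with weights. Npat, the S phase coactivator of histone genes, was 102, 83.5 and 71.5 CPM in WT, against 70.8, 60.6, 69.6, 67.3 and 73.8 in KO (log2 fold change -0.32, SE 0.19, edgeR adjusted p = 0.864). Slbp, which encodes the stem-loop binding protein, had 0.14 (SE 0.24), Pou2f1, which encodes the octamer factor, -0.25 (SE 0.29), and Sympk, a scaffold of the cleavage complex, -0.21 (SE 0.28). Among 8 genes of histone mRNA decay 3 were positive, with a median of -0.25, and values were -0.16 (SE 0.23) for the uridylyltransferase gene Tut7 and 0.01 (SE 0.40) for the helicase gene Upf1. With weights 0 of these 8 rose and 2 fell, where 590 of all 19239 tested genes fell. The 2 were Tut4 (-0.86, limma adjusted p = 0.00756) and Lsm1 (-0.91, limma adjusted p = 0.0388), named here after their values were seen.

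Histone variants and chaperones had medians nearer to 0 than the H2A, H2B and H3 classes. Single edgeR values ran from -0.24 (H3f3a) to 1.22 (H2afx) among variants and from -0.33 (Asf1a) to 1.39 (Asf1b) among chaperones. Of 11 replication-independent and variant histone genes 9 were positive, with a median of 0.20, and 0 passed in edgeR. H3f3a and H3f3b, which encode the replication-independent H3.3, had -0.24 (SE 0.30) and 0.11 (SE 0.28). With weights 2 rose, Cenpa, which encodes the centromeric H3 variant, and H2afx, which encodes H2A.X (1.44 and 1.11, limma adjusted p = 0.0329 and 0.025). Of 17 histone chaperone genes 10 were positive, with a median of 0.14, Atrx being 0.02 (SE 0.23) and Hjurp 0.22 (SE 0.22). Chaf1a, a subunit of the chaperone that deposits new H3 and H4 at replication forks, was the 1 that rose with weights (1.34, limma adjusted p = 0.0433). Cenpa, H2afx, Chaf1a, Asf1a and Asf1b were named after their values were seen.

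Division genes gave the values to set beside the histone classes. Of 31 S phase genes 28 were positive, with a median of 0.35 (0.23 among br libraries). Their mean log2 CPM was 3.54, 3.01 and 2.86 in WT and 3.25, 3.69, 3.70, 3.74 and 3.51 in KO, so WT replicate 1, the lowest library for histones, was the highest WT library for S phase genes. Pcna, the replication clamp, had 0.06 (SE 0.34) and Rrm1, a subunit of ribonucleotide reductase, 0.10 (SE 0.24). With weights 3 rose and 0 fell (Clspn, Mcm5 and Uhrf1, 0.98 to 1.47, named after their values were seen).

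All 18 mitosis genes were positive, with a median of 1.41 (0.87 among br libraries), and 0 passed in edgeR. Their mean log2 CPM was 2.24, 2.90 and 2.72 in WT and 3.25, 3.82, 4.45, 4.56 and 3.34 in KO, without overlap, and KO replicates 3 and 4 were highest, as they were for the H3 genes. Mki67, a proliferation marker, was 73.1, 102 and 63.0 CPM in WT, against 133, 104, 322, 365 and 157 in KO (log2 fold change 1.45, SE 0.46, edgeR adjusted p = 0.58, and 1.55 with weights, limma adjusted p = 0.0178). Top2a had 1.19 (SE 0.32). With weights 12 of the 18 rose and 0 fell. Unlike the H1 and H2B classes, mitosis genes were not high in WT replicate 3.

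**Figure D5:**
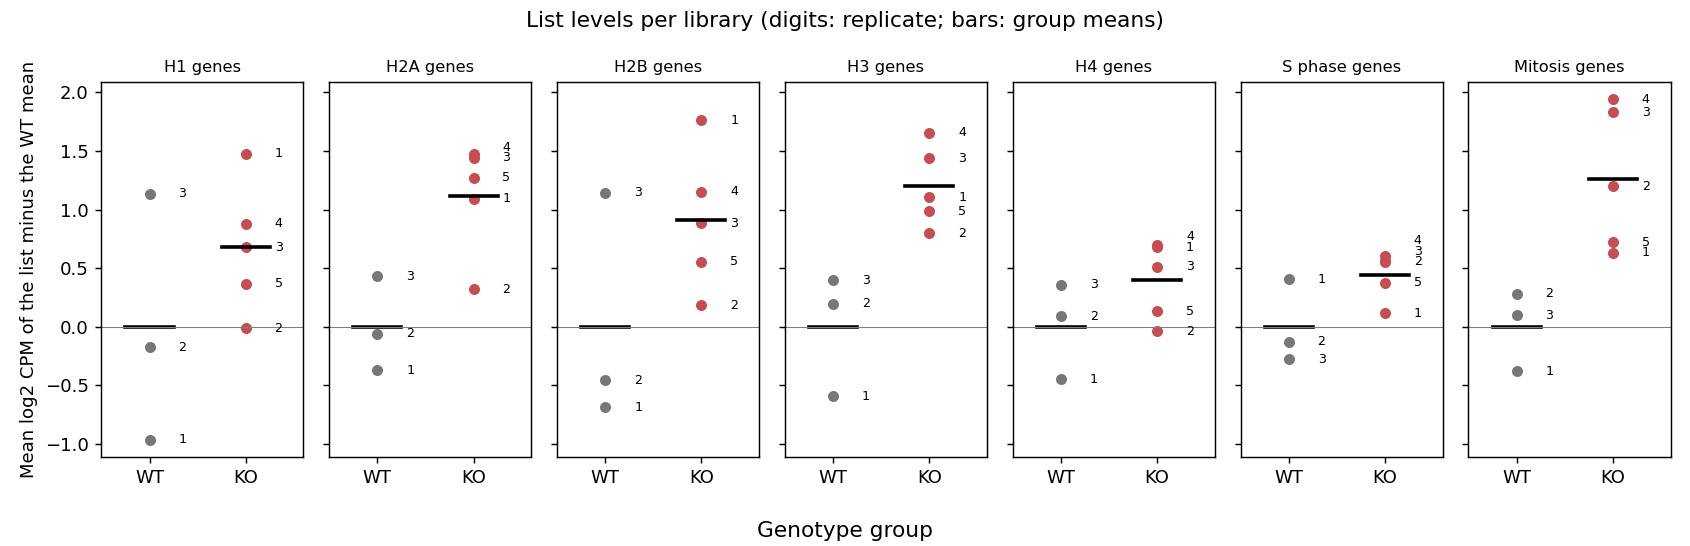
Mean log2 CPM of each gene list per library, minus the mean of the 3 WT libraries (vertical axis), for the 5 histone classes and for S phase and mitosis genes. Points are libraries with their replicate number, and bars are group means. H3 and mitosis genes show no overlap between WT and KO, and WT replicate 3 reaches the KO range in the other 4 histone classes.

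Markers of other cell types that could hold dividing cells varied with the libraries. The 6 T cell markers summed to 30.5 to 84.6 CPM in WT and 57.1 to 156 in KO, highest in KO replicates 3 and 4. Langerhans cell markers (5 genes) were 558 to 713 CPM in WT and 264 to 769 in KO, and 4 endothelial markers were 1.06 to 9.61 in WT and 2.16 to 47.8 in KO, highest in KO replicate 2. No marker of these lists was at 0 in all libraries. Their part in the histone values was not tested.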

How the data were processed

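RNA sequencing of 8 epidermis libraries (3 WT, 5 Tgfa KO) was analysed. Per the labels' protocols, extraction used Trizol, then a Zymo column with DNase, NEBNext Ultra II was the library kit, and the NovaSeq reads were paired, 150 bases each. The authors deposited 1 file of whole-number counts per gene for each library. Per the submitters' processing notes, the tools were Trimmomatic 0.36, STAR 2.5.2b and featureCounts (Subread 1.5.2), with builds GRCh38 and GRCm38 named. Mouse gene identifiers and exon coordinates stand beside the counts, per the file headers, and coordinates are GRCm38 as in the files. The sources used here do not give strand settings, the treatment of reads with several matches or poly(A) selection, so near-identical genes and antisense partners are uncertain.

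Members and gene lists were chosen with earlier results of these data known, and are described by counts and medians without a list test. The test was edgeR 4.0.16 under R 4.3.3 (quasi-likelihood, robust, TMM, filterByExpr, genotype alone, 19239 genes), and a Benjamini-Hochberg adjusted p under 0.05 made a call. Log2 CPM had a prior count of 2. The biological coefficient of variation was 63.7%. Level comparisons between genes used CPM per kb of the exon length in the files. Alternatives were DESeq2 1.42.0, limma 3.58.1 voom with and without sample quality weights, other scalings and filters, the name ending as a covariate, br libraries alone, and libraries left out. The fitting steps were tested on simulated data. Named members were the 4 of each class with the highest CPM per kb, the 3 per direction with the smallest edgeR p, up to 10 called in edgeR or with weights, the highest divergent pair and those without a count. Other named genes were Tgfa, Npat, Slbp and the 2 of each list with the highest CPM. Replicate numbers follow the order of deposition and only name libraries. All pairs of libraries differed by more than sampling noise (lowest chi-square per gene 13.74).

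Stem-loops and windows of 150 bases were searched in GENCODE M21 transcripts, and promoters were from RefSeq (GRCm38.p6).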

Additional observations from a re-analysis of the deposited data

Results flagged for a closer look

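Among 54 groups of 5 KO libraries examined (named genes, class sums and class shares), 6 had 1 library far from the other 4. For separate groups chance gives about 1 in 20. These groups share the same 5 libraries and overlap in genes, so the count cannot be judged against that rate. KO replicate 1 was the high library in Hist1h1c (260 CPM), Hist1h2bc (76.1 CPM), Hist1h1a (32.9 CPM) and the H1 share of the summed CPM per kb (33.7%). KO replicate 2, the shallowest library, was the low one in Hist1h3d (8.86 CPM) and in the chaperone gene Hjurp (171 CPM).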

How the results depend on the processing

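No paired analysis was possible because the labels give no replicate numbers that link WT and KO libraries. In edgeR on all 8 libraries 1 gene of 19239 was higher, 0 were lower, and 0 members were called. Called genes were 97 higher and 40 lower in DESeq2 (3 members higher), 653 and 590 with library weights (18 members), 935 and 948 without WT replicate 3, KO replicate 1 and KO replicate 2 together (24 members), 8 and 1 with no filter, and 0 higher in limma voom, with RLE size factors and among br libraries. Median log2 fold changes with weights were 1.3 for all members, 1.22 for H1, 1.7 for H2A, 1.75 for H2B, 1.38 for H3 and 1.46 for Hist1, and without those 3 libraries they were 1.34, 1.34, 1.83, 1.85, 1.47 and 1.53. The H2A median was 0.54 among br libraries. The Hist2 median was 0.4 in DESeq2, -0.13 with the name ending as a covariate and -0.17 among br libraries. The median over all tested genes ran from -0.06 to 0.53 over the settings, 0.49 in DESeq2 and 0.53 with no filter, where many scarce genes enter.

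Leaving out 1 library at a time gave 0 to 1 genes higher, 0 to 1 lower and 0 members called. Member medians ran from 0.51 to 1.48 (all), -0.45 to 1.22 (H1), 0.8 to 1.65 (H2A), 0.31 to 1.69 (H2B), 0.75 to 1.34 (H3), 0.15 to 0.5 (H4), 0.61 to 1.54 (Hist1) and 0.28 to 0.76 (Hist2), and the highest was without WT replicate 3 in each of these except Hist2. KO over WT ratios of summed CPM ran from 1.0 to 1.86 (all members), 0.75 to 2.1 (H1), 1.66 to 2.96 (H2A) and 1.07 to 3.49 (H2B), the highest again without WT replicate 3. List medians ran from -0.16 to 0.23 for transcription and 3′ end processing and from -0.03 to 0.45 for variant histones. Log2 fold changes that changed sign ran from -0.96 to 0.89 for Hist1h1c, -0.55 to 1.36 for Hist1h1d, -0.52 to 0.92 for Hist1h1e, -0.21 to 1.8 for Hist1h2ac, -0.82 to 2.27 for Hist1h2bc, -0.14 to 0.33 for Hist1h4c, -0.7 to 0.67 for Hist1h4n, -1.09 to 0.34 for Hist2h2be, -1.21 to 0.59 for Hist3h2ba, -0.11 to 0.06 for Atrx, -0.07 to 0.19 for H3f3b, -0.33 to 0.33 for Pcna, -0.17 to 0.23 for Rrm1, -0.07 to 0.33 for Slbp and -0.4 to 0.21 for Upf1.

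Other sign changes were as follows. In DESeq2 they were Hist1h1e (-0.03), Upf1 (-0.02) and Atrx (-0.02). In limma voom they were Hist1h4n (0.18) and Upf1 (-0.11), with RLE size factors Hist1h1e (-0.03), Hist1h2bc (-0.04), Upf1 (-0.02) and Atrx (-0.01), and with library totals alone Hist1h1e (-0.02), Hist1h2bc (-0.09) and Upf1 (-0.03). With weights they were the transcription list (-0.03), Hist1h1c (0.3), Hist1h4n (0.46), Slbp (-0.08), H3f3b (-0.09) and Pcna (-0.12). Without the 3 libraries they were the transcription list (-0.07), Hist1h1c (0.46), Hist1h4n (0.51), Hist2h2be (0.13), Slbp (-0.22), H3f3b (-0.17), Atrx (-0.02) and Pcna (-0.29). With the name ending as a covariate they were the transcription list (-0.25), Hist1h1d (-0.03), Hist1h1c (0.15), Hist1h4f (-0.1), Hist1h4n (0.01), Hist3h2ba (0.32), Hist1h2ae (-0.05), Atrx (-0.17), Rrm1 (-0.23) and Pcna (-0.05). Among br libraries they were the transcription list (-0.27), the chaperone list (-0.02), Hist1h1c (0.2), Hist1h4f (-0.15), Hist1h4n (0.03), Hist3h2ba (0.29), Hist1h2ae (-0.07), Atrx (-0.23), Rrm1 (-0.33) and Pcna (-0.14). The causes were not tested. Members under a few CPM, most of H2A among them, are limited by depth, and intervals for counting error alone are not given.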
